A study of Mus musculus with 9 samples.

Results

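Heterotrimeric G-protein subunits, regulators of G-protein signalling (RGS proteins), G-protein-coupled receptor kinases (GRKs) and arrestins were examined in OB-6, a mouse osteoblastic cell line, during the first hour of parathyroid hormone (PTH) treatment. The members are all probe sets with a single gene symbol beginning with Gna, Gnb, Gng, Rgs, Grk or Arrb, leaving out 1 alpha-subunit gene that is not reported here. They number 63 probe sets for 41 genes, among 12488 probe sets on the array and 8251 genes with a probe set of their own: 23 for alpha subunits, 7 for beta subunits, 9 for gamma subunits, 20 for RGS proteins, 2 for GRKs and 2 for beta-arrestin 1. Total RNA of untreated cultures (0 min) and of cultures treated with PTH for 30 min or 60 min was hybridised to 9 arrays, 3 at each time, labelled replicates a, b and c. The sources used here do not state the PTH fragment, its concentration or how the cells were cultured. No untreated arrays at 30 or 60 min were analysed here, so time in culture and PTH cannot be told apart. OB-6 is 1 cell line, and its arrays are labelled as triplicates with nothing said of separate cultures. The p-values therefore describe array-to-array spread, part or all of which may be technical.

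A heterotrimeric G protein consists of a GTP-binding alpha subunit and a tightly bound beta-gamma dimer. An activated receptor makes the alpha subunit exchange GDP for GTP, after which alpha and beta-gamma act separately on adenylyl cyclases, phospholipase C, ion channels and guanine nucleotide exchange factors. RGS proteins speed up GTP hydrolysis by alpha subunits and so shorten the signal, GRKs phosphorylate active receptors, and arrestins then bind the phosphorylated receptor, uncouple it and carry it into endocytosis. The PTH receptor of osteoblasts couples mainly to the stimulatory alpha subunit that raises cyclic AMP, and also to the Gq family that activates phospholipase C.

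Values are linear intensities as deposited, with arrays scaled to a common trimmed mean. Array medians were 82.31 to 85.925 at 0 min, 76.321 to 88.524 at 30 min and 73.06 to 80.254 at 60 min, so that all 3 at 60 min lay below all 3 at 0 min. The 99th percentiles were 3473.7 to 3605.5 at 0 min, 3442.9 to 3780.2 at 30 min and 3852.3 to 4722 at 60 min. For this measure all 3 at 60 min lay above all 3 at 0 min, with replicate b the highest. Replicate b at 60 min stood apart, with a median correlation of 0.938 with the other arrays against 0.954 to 0.967 for the rest. Of 12 osteoblast markers 7 were tested, and at 60 min 1 was higher and 1 lower than at 0 min. Omd, a bone matrix proteoglycan, fell from a mean intensity of 2083 ± 225.4 to 544.5 ± 120.4 (SD, n = 3 at each time), a log2 difference of -1.93 (limma adjusted p = 0.0145, but 0.0677 without replicate a and 0.0605 without replicate b at 0 min). Col1a1, a collagen chain of bone, rose from 3809 ± 1060 to 5518 ± 669.3 (SD, n = 3 at each time), a log2 difference of 0.56 (limma adjusted p = 0.0499). The call of Col1a1 was kept only without replicate c at 0 min or replicate a at 60 min, and the other 7 left-out arrays gave limma adjusted p-values of 0.0587 to 0.17. With quantile normalization its difference was 0.33 (limma adjusted p = 0.148). The probe set of the PTH receptor gene Pth1r was dim, at 15.7 ± 8.81, 34.47 ± 6.88 and 23.47 ± 12.2 (SD, n = 3 at each time) at 0, 30 and 60 min. Of 8 haematopoietic and osteoclast markers 5 were bright enough to test and 0 were called. The summed intensity of the 8 ranged from 1791 to 2009 at 0 min, 1942 to 2091 at 30 min and 1827 to 2270 at 60 min. Mean intensities at 0 min were 5.87 for Ptprc, 5.73 for Itgam, 22.34 for Lyz2 and 41.91 for Acp5. They were 82.95 for Csf1r, 138.7 for Cd68, 598.5 for Ctsk and 976.1 for Cd14. Of 6 skeletal muscle markers 3 were tested and 1, Ckm, was higher at 60 min, with a list sum of 217.4 to 307.7 at 0 min, 331.5 to 366.9 at 30 min and 281.5 to 414.7 at 60 min. The call of Ckm was lost without replicate a, b or c at 0 min (limma adjusted p = 0.0687, 0.0551 and 0.0691). Of the adipocyte markers 2 of 6 were tested, with 0 called, and a sum of 176.7 to 183.5 at 0 min and 157 to 184.4 at 60 min. No endothelial or chondrocyte marker was bright enough to test. The summed intensity of the endothelial markers was 29.3 to 45.29 at 0 min, 37.6 to 70.81 at 30 min and 81.09 to 95.31 at 60 min, and that of the chondrocyte markers 12.8 to 18.1, 14.1 to 55.59 and 27.5 to 37.59. For both sums the arrays at 60 min lay above those at 0 min. The part of these marker levels in the results below was not tested.

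Of the 63 member probe sets, 37 from 25 genes (58.7%) were bright enough to test, against 63.5% of the 12422 probe sets that are not controls. The minimum for testing was an intensity over 44.69 (the 40th percentile of the deposited values) on 3 arrays or more. The 26 untested probe sets had intensities of 0.4 to 87.79 and means over the 9 arrays of at most 40.46. For 16 genes no probe set was tested. These were the alpha-subunit genes Gna14, Gna15, Gnai1, Gnaq, Gnat1, Gnat2 and Gnaz, the gamma-subunit genes Gng2, Gng4, Gng11 and Gngt2, and Rgs5, Rgs6, Rgs7, Rgs9 and Rgs11. Gnat1 and Gnat2 encode the transducin alpha subunits of rods and cones and Rgs9 their RGS protein, and Gnaz is known mainly from neurons and platelets. Of the tested probe sets 32 lay above the threshold on all 9 arrays, and 5 on some of them, for Rgs2, Rgs8, Arrb1, Gnb3 and Gng12. A dim probe set can reflect a poor probe design as well as little RNA, so a low value sets no level against that of another gene.

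At 30 min of PTH no member probe set was called. A call means an adjusted p under 0.05 in limma, fitted to all 7884 tested probe sets with Benjamini-Hochberg adjustment, and 0.939% of them were called at 30 min. Without adjustment, 8 of the 37 members (21.6%) had a p under 0.05, against 17.9% of all tested probe sets. The 3 arrays at 30 min did not overlap the 3 at 0 min for 9 members (24.3%), of which 6 were higher and 3 lower, against a background of 30.6%. Both shares lie near those of the whole array. The members' median difference was 0.11, as a log2 difference of intensity plus 11.8, against 0.05 for all tested probe sets, and single members ranged from -0.54 to 0.65.

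By 60 min, 5 probe sets of 5 genes were called against 0 min. Gnai3, an inhibitory alpha subunit, fell, and Gna11, Gnb1, Gnb2 and Rgs19 rose. The 4 that rose are 10.8% of the 37 tested members, against a background of 4.35% of all tested probe sets, and the 1 that fell is 2.7%, against 8.73%. These backgrounds come from 343 higher and 688 lower calls, which became 499 and 652 when each array was scaled to a common 75th percentile. The arrays at the 2 times did not overlap for 14 members (37.8%), 9 higher and 5 lower, against 40.7% of all tested probe sets. The median difference at 60 min was 0.14 for the members and 0.03 for all tested probe sets, with 24 of 37 members (64.9%) above 0 against 53.4% overall. By role, the median at 60 min was 0.16 over the 13 tested probe sets of alpha subunits (range -0.910 to 0.855). For 7 probe sets of beta subunits it was 0.14 (-0.113 to 0.589), and for 4 of gamma subunits -0.17 (-0.481 to 0.325). For 10 probe sets of RGS proteins it was 0.18 (-0.402 to 0.631), and for the pair of GRKs -0.18 (-0.363 to -0.001).

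Between 30 and 60 min 0 members were called in limma, against 0.0254% of all tested probe sets, with 4 of 37 members (10.8%) at an unadjusted p under 0.05 against 9.07% of all. The 2 sets of arrays did not overlap for 8 members (21.6%), against 11.6% of all tested probe sets. A test for any change over the 3 times (limma's moderated F test) called Gnai3 and Gnb1, 5.41% of the tested members against 4.64% of all probe sets. The comparisons at 30 and 60 min share the arrays at 0 min, so their values for a gene are not independent of each other.

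**Figure D1:**
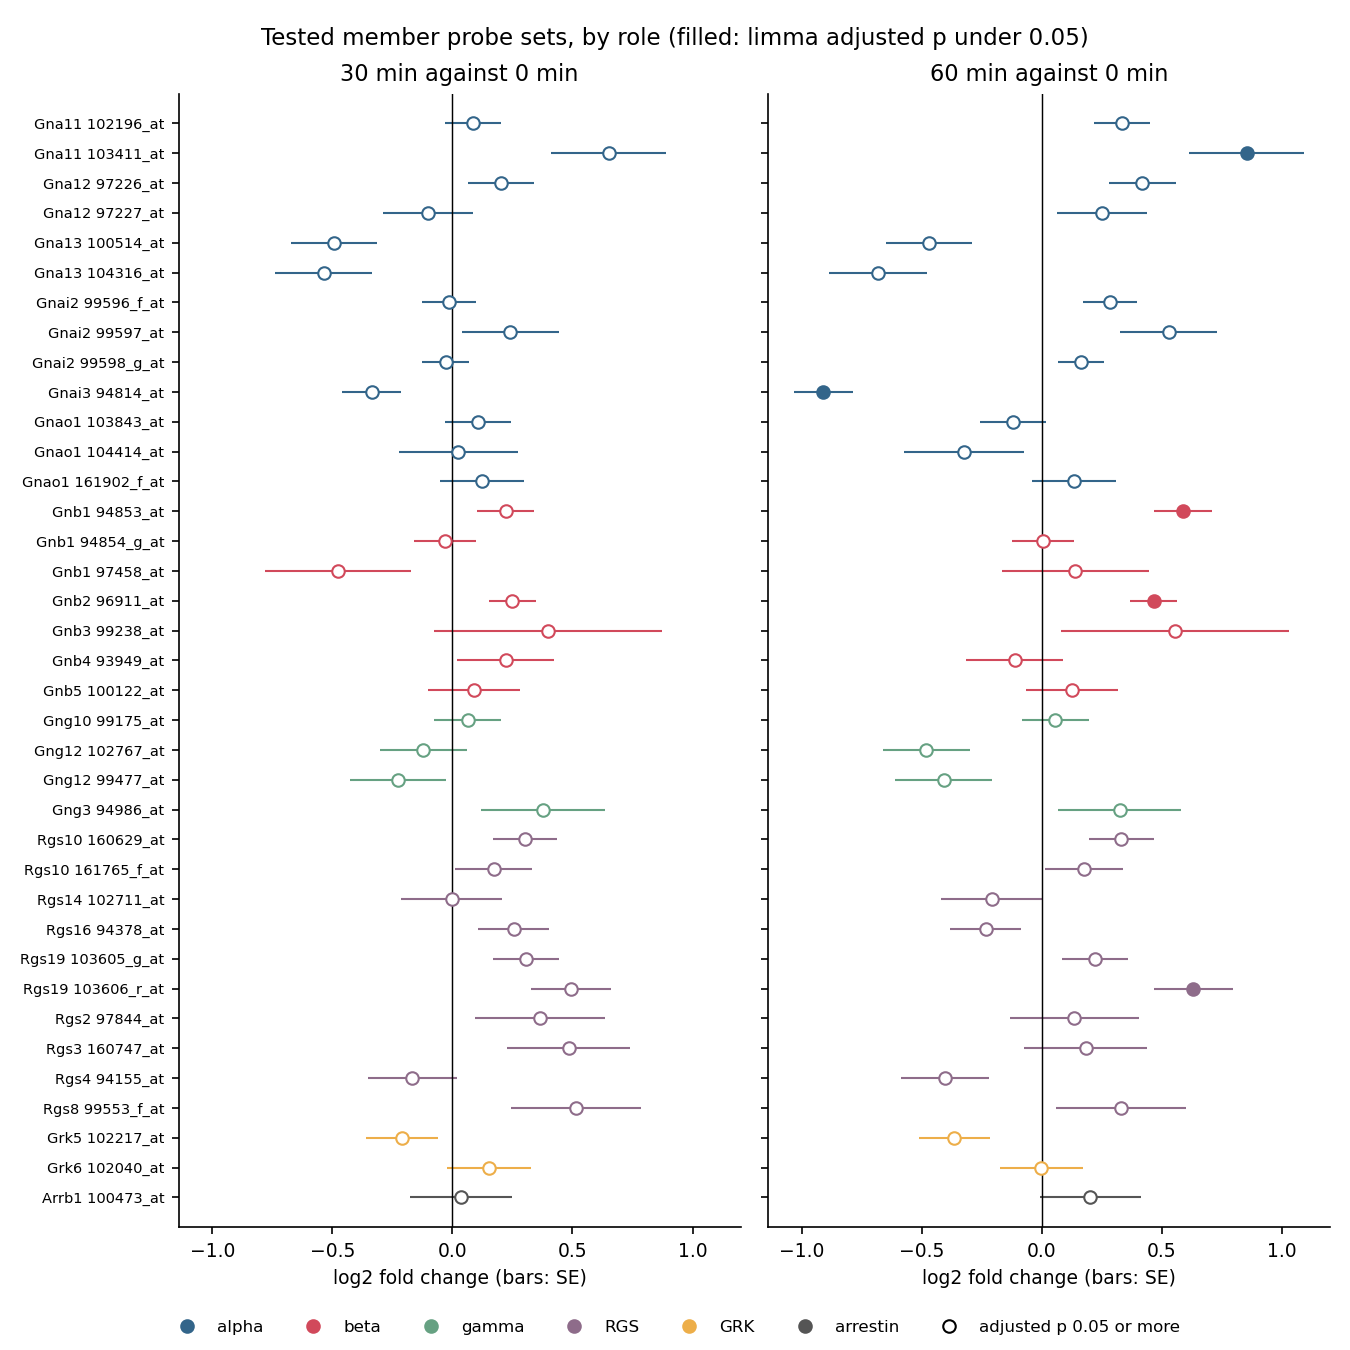
Log2 difference from 0 min (intensity plus 11.8) of each of the 37 tested member probe sets at 30 min and at 60 min of PTH, with bars of 1 standard error, coloured by role and filled where the adjusted p in limma was under 0.05. No symbol is filled at 30 min, and at 60 min 5 are, with Gnai3 lowest at -0.91 and Gna11 highest at 0.85.

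Gnai3 encodes Gαi3, which lowers adenylyl cyclase activity and supplies beta-gamma dimers when its receptors are active. Its intensity was 1923, 1747 and 2088 in replicates a, b and c at 0 min, 1540, 1434 and 1573 at 30 min, and 1069, 854.5 and 1139 at 60 min. All 3 arrays at 30 min lay below all at 0 min, and all 3 at 60 min lay below those at 30 min. In RNA of a whole culture, fewer cells with a transcript and less of it per cell cannot be told apart. The means were 1919 ± 170.4, 1516 ± 72.45 and 1021 ± 148.4 (SD, n = 3 at each time). In limma the log2 difference was -0.34 at 30 min (SE 0.12, adjusted p = 0.196) and -0.91 at 60 min (SE 0.12, adjusted p = 0.0059), a fold of 0.532. Between 30 and 60 min it was -0.57 with an adjusted p of 0.332 in limma, and the F test over the 3 times gave an adjusted p of 0.0138. The call at 60 min was made with each of the 9 arrays left out in turn, at limma adjusted p-values of 0.00382 to 0.0417. Without replicate b at 60 min, the array that stood apart and the lowest for this gene, the difference was -0.79 (limma adjusted p = 0.00467). The F test's adjusted p in limma was 0.0956 without replicate a and 0.0644 without replicate c at 0 min.

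The sequence before the annotated start of Gnai3 is shown because this gene had the largest fall among the tested members at 60 min. It covers chr3:108146153-108146402 of GRCm38.p6 on the minus strand, 250 bases before the transcription start, from RefSeq, and holds neither the cyclic AMP response element TGACGTCA nor its core TGACG on either strand.
Gnai3: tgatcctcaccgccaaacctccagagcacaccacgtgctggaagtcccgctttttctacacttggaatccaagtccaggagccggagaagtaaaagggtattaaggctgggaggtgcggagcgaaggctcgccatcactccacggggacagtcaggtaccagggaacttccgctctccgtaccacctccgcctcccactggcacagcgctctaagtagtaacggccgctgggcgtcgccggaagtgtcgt
RefSeq windows of this length were matched for 31 member genes, 40 windows in all. TGACGTCA is in 0 of the 40, against 508 of 32851 windows of all genes (1.55%). The core TGACG, of which TGACGTCA holds 1 copy on each strand, is in 5 of the 40 (12.5%), those of Gnb1, Gng4, Rgs2, Rgs4 and Rgs8, against 17.8% of all windows.

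Gnai2 encodes the closely related inhibitory subunit Gαi2 and had 3 tested probe sets, of which 0 were called. The probe set 99596_f_at read 4980, 5927 and 5693 at 0 min, 5789, 5805 and 4837 at 30 min, and 6378, 7617 and 6256 at 60 min. Its arrays at 60 min did not overlap those at 0 or 30 min, yet the difference at 60 min was 0.28 (SE 0.11) with an adjusted p of 0.111 in limma. The suffix f marks probes shared with related sequences, so RNA of other genes could add to this reading. The other probe sets, 99597_at and 99598_g_at, differed from 0 min by 0.53 (SE 0.20, limma adjusted p = 0.102) and 0.16 (SE 0.10, limma adjusted p = 0.273) at 60 min. Intensities were 344.7, 336.4 and 423.7 for 99597_at and 3098, 2980 and 2689 for 99598_g_at at 0 min. At 60 min they were 393.2, 662.6 and 583.3 for 99597_at and 2941, 3395 and 3502 for 99598_g_at. Both probe sets overlapped between 0 and 60 min. With quantile normalization the differences at 60 min of Gnai2 were 0.037 for 99596_f_at and 0.0042 for 99598_g_at, while 99597_at kept 0.56. At 30 min 99597_at read 545, 394.3 and 382.7, with replicate a the highest of the 3. The probe set 99598_g_at read 2751, 2900 and 2935 at 30 min, within its range at 0 min.

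Gna11 encodes Gα11, of the Gq family, which activates phospholipase C beta, and was called at 60 min on 1 of its 2 probe sets. The probe set 103411_at read 280.3, 227.1 and 133.6 at 0 min, 310.8, 423.1 and 268.2 at 30 min, and 391.8, 366.1 and 381.6 at 60 min. The untreated arrays were scattered, with replicate c the lowest, and all 3 arrays at 60 min lay above them, while 30 min overlapped both. The log2 difference in limma was 0.65 at 30 min (SE 0.24, adjusted p = 0.196) and 0.85 at 60 min (SE 0.24, adjusted p = 0.0412), a fold of 1.81. This call was kept only without replicate a or replicate b at 30 min, and leaving out any of the other 7 arrays gave limma adjusted p-values of 0.0522 to 0.11. Without replicate c at 0 min, the lowest reading, the difference was 0.57 (limma adjusted p = 0.11), and without replicate a at 0 min it was 1.07 (limma adjusted p = 0.0601).

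The second Gna11 probe set, 102196_at, read 324.3, 329.5 and 271.5 at 0 min, 317.6, 327 and 336.6 at 30 min, and 368.1, 415.3 and 391.3 at 60 min. Its arrays at 60 min were above all others too, with a smaller difference of 0.34 (SE 0.12, limma adjusted p = 0.0788). The Gq subunit itself, Gnaq, had 1 probe set, which was too dim to test, at 43.2, 46.92 and 30.3 at 0 min, 54, 35.09 and 29.51 at 30 min, and 42.81, 40.59 and 41.7 at 60 min. Its arrays at 60 min lay within the range of those at 0 min.

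Gna12 and Gna13 encode the alpha subunits that act through guanine nucleotide exchange factors on the actin cytoskeleton. None of their probe sets was called, and at 60 min the 2 genes differed from 0 min in opposite directions. Gna13 was lower on both probe sets. The probe set 100514_at read 404.2, 321.1 and 453.5 at 0 min, 315, 230.7 and 279.8 at 30 min, and 297.1, 224.4 and 321.6 at 60 min. The arrays at 30 min lay just below those at 0 min, and those at 60 min overlapped them narrowly. The probe set 104316_at read 106.8, 117.4 and 124.5 at 0 min, 64, 82.6 and 83.81 at 30 min, and 81.52, 48.1 and 78.68 at 60 min, with both treated times wholly below 0 min. Differences at 30 min were -0.49 (SE 0.18, limma adjusted p = 0.192) for 100514_at and -0.54 (SE 0.20, limma adjusted p = 0.204) for 104316_at. At 60 min they were -0.47 (limma adjusted p = 0.102) and -0.68 (limma adjusted p = 0.0505), the latter just outside the threshold.

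The Gna12 probe set 97226_at read 231, 191.9 and 202.1 at 0 min, 207.4, 258 and 260.7 at 30 min, and 257.4, 314.7 and 276.1 at 60 min. Its arrays at 60 min were all above those at 0 min, by a log2 difference of 0.42 (SE 0.14, limma adjusted p = 0.0684). The other, 97227_at, read 136.5, 113.8 and 95.21 at 0 min, 130.7, 104.8 and 85.39 at 30 min, and 133.5, 123.1 and 159.9 at 60 min. These arrays overlapped at all times, with a difference of 0.25 at 60 min (SE 0.19, limma adjusted p = 0.389). Gnao1, the Go alpha subunit known mainly from neurons, had 3 tested probe sets with differences of -0.32 to 0.14 at 60 min and limma adjusted p-values of 0.403 to 0.634, none of them called.

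**Figure D2:**
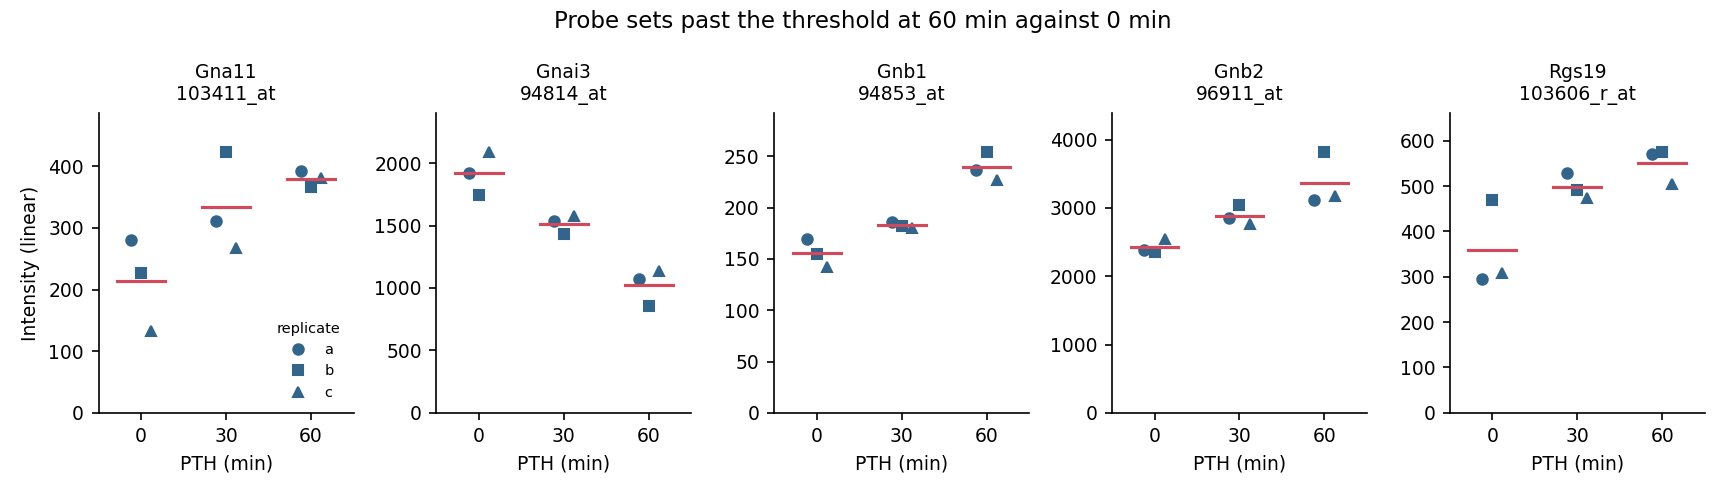
Deposited linear intensity of the 5 member probe sets called at 60 min against 0 min, plotted from 0 against minutes of PTH, with 1 symbol per array (circle, replicate a; square, b; triangle, c) and a red bar at the mean of each time. Gnai3 steps down from a mean of 1919 to 1021 and the other 4 step up, with no overlap between the arrays at 0 and 60 min in any panel.

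Beta subunits, which form the obligate dimer with gamma, gave 2 of the 4 probe sets that rose. Gnb2 (Gβ2) read 2379, 2361 and 2539 at 0 min, 2856, 3036 and 2771 at 30 min, and 3115, 3816 and 3174 at 60 min. The 3 times did not overlap, and the means were 2426 ± 98.1, 2888 ± 135.5 and 3368 ± 389.1 (SD, n = 3 at each time). Its differences were 0.25 at 30 min (SE 0.10, limma adjusted p = 0.225) and 0.47 at 60 min (SE 0.10, limma adjusted p = 0.0188), a fold of 1.38. Quantile normalization gave a smaller difference of 0.32 at 60 min (limma adjusted p = 0.0217). Without replicate a, b or c at 0 min the limma adjusted p at 60 min was 0.0829, 0.0786 and 0.0534, and it was under 0.05 when any of the other 6 arrays was left out. Replicate b at 60 min was the highest array, and without it the difference was 0.37 (limma adjusted p = 0.0274).

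Gnb1 (Gβ1) rose on 1 of its 3 probe sets. The probe set 94853_at read 169.2, 154.8 and 142.4 at 0 min, 186, 182.3 and 180.6 at 30 min, and 236.9, 254.2 and 227.4 at 60 min. The 3 times were again fully separate, and its spread between arrays of a time was the smallest of the 37 members, a log2 SD of 0.081 against a median of 0.209. In limma the difference was 0.22 at 30 min (SE 0.12, adjusted p = 0.353) and 0.59 at 60 min (SE 0.12, adjusted p = 0.0159), a fold of 1.5, with an F-test adjusted p of 0.0429. The call at 60 min was lost without replicate a, b or c at 0 min, at limma adjusted p-values of 0.0601, 0.0684 and 0.0633, and kept without any of the other 6 arrays. The F-test call was kept only without replicate a at 30 min (limma adjusted p = 0.0376), and leaving out any other array gave limma adjusted p-values up to 0.171.

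The other two Gnb1 probe sets did not show this difference. The probe set 94854_g_at is numbered next to 94853_at. It read 437.5, 455.7 and 379 at 0 min, 351.2, 436.2 and 460.5 at 30 min, and 419.9, 423.4 and 428.8 at 60 min. It differed by 0.00 at 60 min (SE 0.13, limma adjusted p = 0.986). Its arrays at 60 min lay within the range at 0 min. The probe set 97458_at read 349.2, 353.4 and 225.8 at 0 min, 118.2, 264.5 and 311.7 at 30 min, and 307.6, 307.2 and 400 at 60 min, a difference of 0.14 at 60 min (SE 0.31, limma adjusted p = 0.791). Its reading in replicate a at 30 min was the lowest of the 9, and the times overlapped.

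The remaining beta subunits were not called. Gnb4 had a mean of 187 at 0 min, 220.6 at 30 min and 170.9 at 60 min, with a limma adjusted p of 0.742 at 60 min. Gnb5, an atypical beta subunit that pairs with the R7 group of RGS proteins, had means of 77.02, 83.11 and 84.66 and a limma adjusted p of 0.69. Gnb3 was above the filter threshold on only 3 arrays, 0 of them untreated, and its difference of 0.56 at 60 min had an SE of 0.47 (limma adjusted p = 0.456).

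Gamma subunits gave 4 tested probe sets and 0 calls. Gng12 was lower at 60 min on both of its probe sets. The probe set 102767_at read 724.1, 732.2 and 657.1 at 0 min, 770.7, 537.1 and 651.2 at 30 min, and 619.9, 380.3 and 532.3 at 60 min. The arrays at 60 min were below those at 0 min, and replicate b was the lowest at both treated times. The dimmer 99477_at read 89.51, 77.92 and 76.32 at 0 min, 78.79, 57.68 and 67.6 at 30 min, and 68.59, 43.9 and 64.8 at 60 min, in the same order of arrays at 60 min. The differences at 60 min were -0.48 (SE 0.18, limma adjusted p = 0.0992) and -0.41 (SE 0.20, limma adjusted p = 0.185). Gng10 read 764.8, 715.1 and 664.4 at 0 min, 686.9, 745 and 812.4 at 30 min, and 818.6, 600.9 and 832.9 at 60 min, with arrays that overlapped at all times and a difference of 0.06 (SE 0.14, limma adjusted p = 0.814). Gng3 had a difference of 0.33 at 60 min (limma adjusted p = 0.417).

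Among RGS proteins, 10 probe sets of 8 genes were tested and 1 was called. Rgs19, also known as GAIP, acts on Gαi subunits, Gαi3 among them. The probe set 103606_r_at read 295.3, 470.2 and 308.9 at 0 min, 529.7, 491.5 and 474.4 at 30 min, and 570.5, 574.8 and 504.6 at 60 min. The arrays at both treated times lay above all 3 at 0 min, where replicate b was close to the treated arrays and the other two were well below. Differences in limma were 0.49 at 30 min (SE 0.17, adjusted p = 0.165) and 0.63 at 60 min (SE 0.17, adjusted p = 0.0336), a fold of 1.55. The call at 60 min was kept without replicate b at 0 min (limma adjusted p = 0.0281) and without replicate a or b at 30 min. Without replicate a at 0 min the limma adjusted p was 0.135, without replicate c at 0 min 0.113, and without replicate c at 30 min or any array at 60 min it was 0.0521 to 0.0753.

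The companion probe set of Rgs19, 103605_g_at, read 152.5, 152 and 190.9 at 0 min, 198.6, 198.4 and 221.6 at 30 min, and 196.7, 210.5 and 175.3 at 60 min. It was higher on every array at 30 min than at 0 min and overlapped at 60 min, with differences of 0.31 (SE 0.14, limma adjusted p = 0.272) and 0.22 (limma adjusted p = 0.288). The third, 103604_at, was too dim to test, at 5.498 to 13.8. The suffix r marks a probe set for which the usual design rules were relaxed.

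Rgs2 acts mainly on Gq-family alpha subunits and is known as a gene that PTH and cyclic AMP induce in osteoblasts. Its only probe set among the members was dim. It read 37.4, 46.69 and 45.29 at 0 min, 58.2, 48.1 and 71.8 at 30 min, and 68.12, 29.3 and 54.61 at 60 min. It passed the filter threshold on 7 of 9 arrays. All 3 arrays at 30 min were above those at 0 min, and at 60 min replicate b was the lowest of the 9 while the other two were above 0 min. The differences were 0.36 at 30 min (SE 0.27, limma adjusted p = 0.489) and 0.14 at 60 min (SE 0.27, limma adjusted p = 0.767), so no change in Rgs2 was detectable at this signal.

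The window before the start of Rgs2 is shown because of that known induction. It covers chr1:144004150-144004399 of GRCm38.p6 on the minus strand, from RefSeq, and capitals mark 2 copies of the core TGACG, the first of them as its reverse complement CGTCA.
Rgs2: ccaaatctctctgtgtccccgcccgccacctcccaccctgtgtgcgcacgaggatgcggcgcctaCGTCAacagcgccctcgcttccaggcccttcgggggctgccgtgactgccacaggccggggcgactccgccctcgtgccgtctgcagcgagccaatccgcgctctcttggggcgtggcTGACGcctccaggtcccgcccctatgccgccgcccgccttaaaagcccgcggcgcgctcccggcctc
A match of these letters is a description and not a measured binding site.

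Rgs4 and Rgs16 are small RGS proteins that act on Gαi and Gq-family subunits, and neither was called. Rgs4 read 156.2, 130.4 and 115 at 0 min, 121.2, 131.6 and 100.5 at 30 min, and 123.8, 88.77 and 84.39 at 60 min, a difference of -0.40 at 60 min (SE 0.18, limma adjusted p = 0.156). Its times overlapped. The tested Rgs16 probe set, 94378_at, had its highest mean at 30 min and its lowest at 60 min. It read 107.9, 112.9 and 131.2 at 0 min, 142.9, 125.4 and 159.2 at 30 min, and 105.6, 90.01 and 98.29 at 60 min. The arrays at 60 min lay below all those at 0 and at 30 min. Between 30 and 60 min the difference was -0.49 with an adjusted p of 0.526 in limma, and against 0 min it was 0.25 at 30 min (SE 0.15, limma adjusted p = 0.387) and -0.23 at 60 min (limma adjusted p = 0.305). With quantile normalization the differences at 60 min were -0.08 for Rgs16 and -0.26 for Rgs4. The second Rgs16 probe set, 161609_at, was too dim to test, at 11.3, 31.1 and 57.68 at 0 min, 6.498, 29.61 and 41.9 at 30 min, and 5.202, 6.199 and 38.8 at 60 min. Its mean was highest at 0 min, and its arrays overlapped at all times.

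Rgs3, which acts on Gαi and Gq-family subunits, varied widely between arrays of each time. It read 397.8, 537.8 and 744.4 at 0 min, 732.2, 944.9 and 642.3 at 30 min, and 501.5, 874.9 and 536.7 at 60 min. All times overlapped, with differences of 0.48 at 30 min (SE 0.26, limma adjusted p = 0.348) and 0.18 at 60 min (limma adjusted p = 0.663). Of the remaining RGS genes, Rgs10 had means of 330, 410.3 and 419.4 on its brightest probe set and a difference of 0.33 at 60 min (limma adjusted p = 0.119). Rgs8 differed by 0.33 (limma adjusted p = 0.437) and Rgs14 by -0.21 (limma adjusted p = 0.54).

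**Figure D3:**
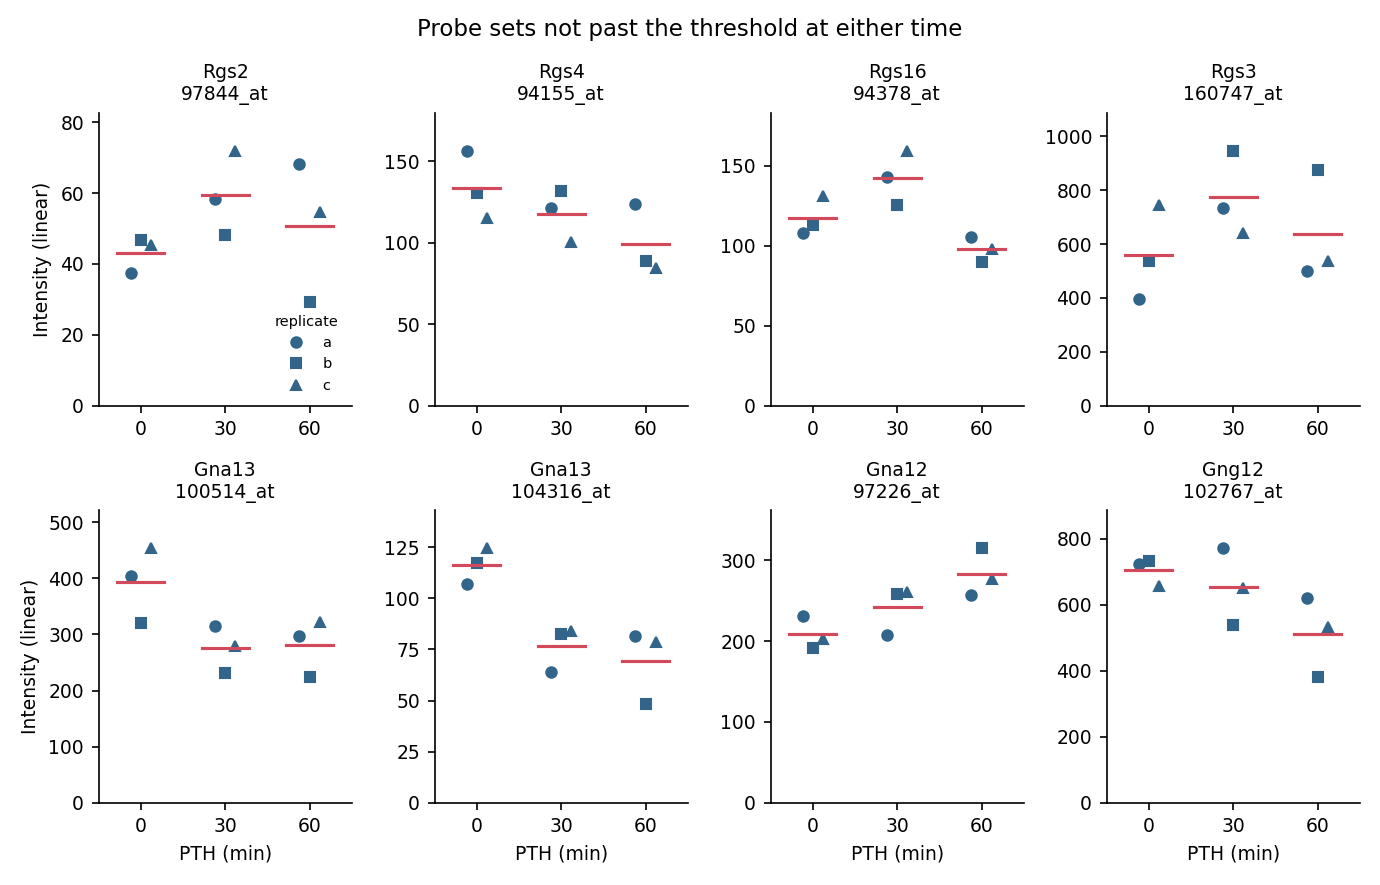
Deposited linear intensity of 8 member probe sets that were not called, for Rgs2, Rgs4, Rgs16, Rgs3, Gna13 (2 probe sets), Gna12 and Gng12, plotted from 0 against minutes of PTH, with 1 symbol per array (circle, replicate a; square, b; triangle, c) and a red bar at the mean of each time. Both Gna13 panels step down by 30 min, the Rgs16 mean is highest at 30 min, and the arrays of Rgs2 at 60 min run from 29.3 to 68.12.

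The receptor-desensitising members were few, and 0 of their 3 tested probe sets were called. Grk5, a receptor kinase held at the membrane by lipids, read 448.5, 493.2 and 329.9 at 0 min, 331.8, 382.7 and 367.9 at 30 min, and 307, 326.1 and 335 at 60 min. Replicate c at 0 min fell among the treated arrays, so the groups overlapped, and the difference at 60 min was -0.36 (SE 0.15, limma adjusted p = 0.123). Grk6, of the same kinase subfamily, read 523.1, 428.2 and 531.9 at 0 min, 525.7, 615.2 and 509.5 at 30 min, and 375.6, 612.7 and 515.6 at 60 min. Its arrays overlapped throughout, with a difference of 0.15 at 30 min (SE 0.17, limma adjusted p = 0.652) and of -0.0014 at 60 min (limma adjusted p = 0.996). Arrb1, beta-arrestin 1, was dim, at 42.49, 49.69 and 49.49 at 0 min, 43.9, 41.79 and 61.99 at 30 min, and 57.88, 62.81 and 48.2 at 60 min. These readings overlapped between the times, and the difference at 60 min was 0.20 (SE 0.21, limma adjusted p = 0.549). A second Arrb1 probe set, 162481_f_at, was too dim to test, at 11.8 to 87.79. Arrb2 and Grk2 were not analysed here.

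Several genes were read by more than 1 tested probe set, 9 in all. For 8 of them the probe sets had the same sign at 60 min, Gnao1 being the exception. Gnb1 is among the 8 with differences of 0.004 to 0.589. The sign of its probe set 94854_g_at changed in 2 of 9 fits with 1 array left out. None of the 9 had all its probe sets called, and for 3 of them, Gna11, Gnb1 and Rgs19, 1 probe set was called and the rest were not. Gnai3 and Gnb2, the other called genes, had a single probe set each among the members, so no companion reading was analysed for them.

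The 5 calls at 60 min differed in how far they rested on single arrays. With 1 array left out at a time, Gnai3 was called in 9 of 9 fits, Gnb1 and Gnb2 in 6 of 9, Rgs19 in 3 of 9 and Gna11 in 2 of 9. Leaving out an untreated array also cut the calls over the whole table, from 1031 to 77 without replicate a, 107 without replicate b and 259 without replicate c at 0 min.

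**Figure D4:**
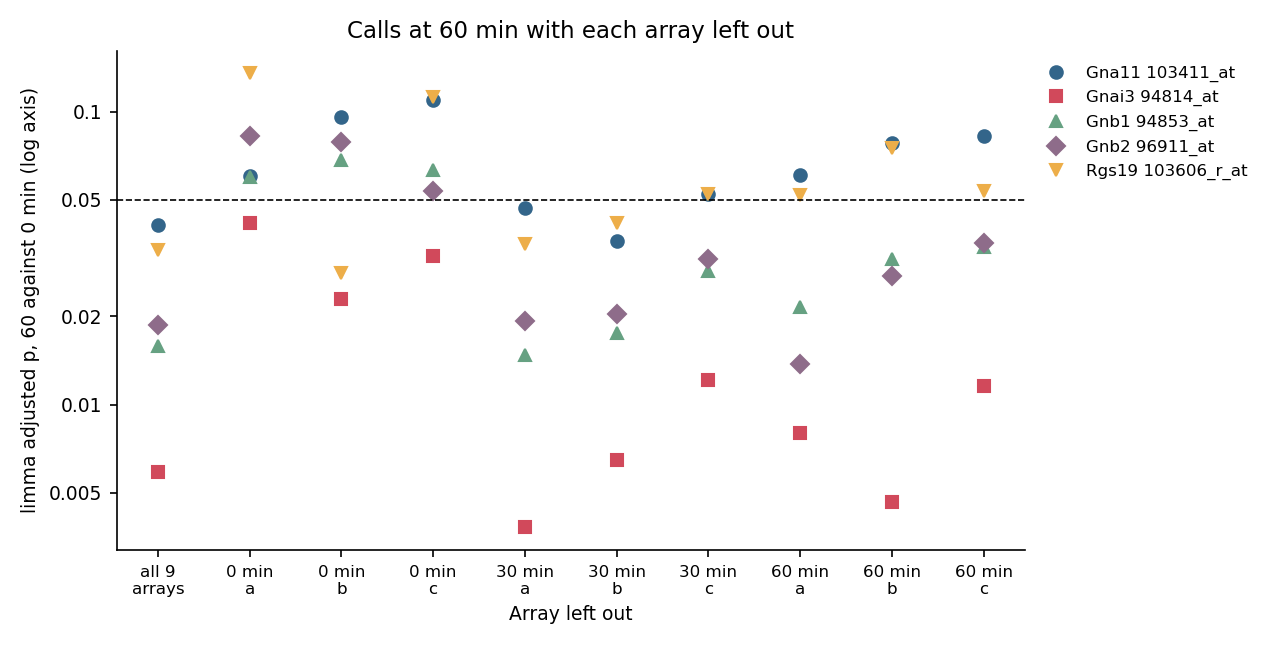
Adjusted p in limma at 60 min against 0 min (log axis) of the 5 called member probe sets when each of the 9 arrays was left out in turn, with a dashed line at 0.05. Gnai3 stays below the line in all 9 fits, at most 0.0417, whereas Gnb1 and Gnb2 cross it without any 1 of the 3 untreated arrays.

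Other genes of heterotrimeric G-protein signalling, such as adenylyl cyclases, phospholipase C beta, guanine nucleotide exchange factors and receptor-modifying proteins, were set beside the members. Of 52 such genes 35 had a probe set and 24 were tested, each by its brightest probe set. At 30 min 0 were called in limma. At 60 min 0 were higher and 2 were lower, against 273 higher and 540 lower of 5936 genes tested in the same way. Snx13, a sorting nexin with an RGS domain, fell from 149.1 ± 23.08 to 42.27 ± 11.46 (SD, n = 3 at each time), a log2 difference of -1.59 (SE 0.27, limma adjusted p = 0.00912). Rock1, a kinase that acts on the actin cytoskeleton, fell from 96.55 ± 18.52 to 35.7 ± 7.21 (SD, n = 3 at each time), a log2 difference of -1.19 (SE 0.28, limma adjusted p = 0.025). Both means at 60 min lay below the testing minimum of 44.69, and the size of both falls varied with the added constant. With a constant of 1 the log2 difference was -1.82 for Snx13 and -1.41 for Rock1. With a constant of 50 it was -1.11 for Snx13 and -0.77 for Rock1. The call of Snx13 was lost without replicate a at 0 min (limma adjusted p = 0.0561) and kept without any of the other 8 arrays. That of Rock1 was lost without replicate a, b or c at 0 min, at limma adjusted p-values of 0.105, 0.0887 and 0.0547, and without replicate b or c at 60 min, at 0.0599 and 0.0582. The list's median difference was -0.04 at 60 min, against 0.04 for all genes tested.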

How the data were processed

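RNA of 9 one-colour oligonucleotide arrays was analysed from the deposited value table, whose linear intensities (0.1 to 8605.242) the authors had scaled to trimmed means of 249.5 to 250; how probes were summarised is not given in the sources used here. Array number, 3 a time, limits the precision. Intensities plus 11.8 (their 20th percentile) were put on the log2 scale and fitted with limma 3.58.1 in R 4.3.3 (lmFit, trended eBayes, 6 residual degrees of freedom) on the 7884 tested probe sets. The 66 control probe sets were left out. Symbols came from the platform annotation (10833 probe sets with 1 symbol, 396 with several), and all 63 matched the current gene table. A probe set with several symbols and 1 antisense transcript matched by its letters were not used, and 1 alpha-subunit gene is not reported here. Named with values on every array were all called members, the 2 genes with the brightest probe set of each role and a fixed panel with their other tested probe sets, untested ones by range or array. Members and lists were chosen with earlier results of these data known. Alternatives were another added constant, filter, scaling, variance prior, the replicate letter as a block, 2 times only, and leaving out each array. The fit was tested on simulated data.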

Additional observations from a re-analysis of the deposited data

How the results depend on the processing

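At 30 min against 0 min and at 60 against 30 min, 0 members were called in limma under every alternative. At 60 min against 0 min the 5 called members became 3 with no filter on low values, 3 without the variance trend and 3 with only the 2 times compared, each time without Gna11 and Rgs19, and 1 to 7 with 1 array left out. Over the 3 times, the 2 members called by the F test became 1 with no filter, 1 without the variance trend and 0 to 3 with 1 array left out. They became 3, with Gnb2 added, under the constant of 50, the filter at the 60th percentile, quantile normalization and 75th percentile scaling. The same 5 members were called at 60 min with an added constant of 1 or 50. They were also called with the filter at the 60th percentile or on the mean, quantile normalization and 75th percentile scaling. The constant of 50 added Gna13 104316_at, but not Gna13 100514_at (limma adjusted p = 0.0958). Over the whole table the calls at 60 min numbered 1031, 652 with no filter and 77 to 1584 with 1 array left out.

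With the replicate letter as a replicate block, 7 members were called at 60 min, adding Gna13 100514_at and Gng12 102767_at, and 5 over the 3 times. The other Gna13 probe set, 104316_at, was not called with the block (limma adjusted p = 0.0508). Deviations from the mean of each time were correlated at -0.128 to 0.304 between arrays of the same letter. Between arrays of other letters they were correlated at -0.266 to 0.179. Between 30 and 60 min the correlation was 0.304 for replicate a, 0.251 for replicate b and 0.0224 for replicate c. These ranges overlap and rest on few arrays, so they cannot decide whether the letters pair the samples.

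Of 974 values of named members under an alternative, 915 (93.9%) kept their direction and their side of the threshold, 25 lost a call, 8 gained one and 26 changed sign. The sign changes concern 12 differences, 0 of them called. Grk6 at 60 min was -0.0014 and became 0.0001 with a constant of 50, 0.0394 with quantile normalization and 0.0649 with 75th percentile scaling. With quantile normalization the uncalled differences at 60 min of Gna12 97227_at (0.25) and Rgs2 (0.14) became 0.38 and 0.21. With 1 array left out, the differences at 30 min spanned -0.109 to 0.122 for Arrb1, -0.242 to 0.0343 for Gna12 97227_at, -0.0898 to 0.0708 for Gnai2 99596_f_at, -0.0863 to 0.0153 for Gnai2 99598_g_at, -0.109 to 0.0820 for Gnb1 94854_g_at and -0.246 to 0.0097 for Gng12 102767_at. At 60 min they spanned -0.0725 to 0.0568 for Gnb1 94854_g_at, -0.0633 to 0.247 for Gnb1 97458_at, -0.0243 to 0.207 for Gng10, -0.157 to 0.188 for Grk6, -0.0680 to 0.412 for Rgs2 and -0.0629 to 0.408 for Rgs3. The cause of these changes was not tested. The same alternatives were applied to Snx13 and Rock1 after the data were seen, and both remained called wherever all 9 arrays, or all 6 of the 2 times, were used and the probe set was tested. Dim probe sets, such as those of Rgs2, Arrb1 and Gnb3, limit what could be detected.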
